A study of Mus musculus with 12 samples.

Results

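The phagocyte NADPH oxidase was described here through the transcripts of 6 of its subunit and partner genes, Cyba, Cybb, Ncf1, Ncf4, Rac1 and Rac2. They were chosen by name for their place in the complex, with earlier results of these data known, and each matched 1 row among 55421 Ensembl gene rows. Messenger RNA counts came from 12 libraries of 2 mouse lines, each in a control group and a group treated with the kinase inhibitor rebastinib at 5 nM for 6 h, with 3 libraries per group. ID8 is a transformed ovarian epithelial line from female C57BL6J wildtype mice. PMJ2R is a peritoneal macrophage line from female C57BL6J mice that carries the v-raf and v-myc oncogenes. Controls and treated libraries of a line share that genotype, and each cell type is represented by 1 line. Nothing in the labels says that the 3 libraries of a group came from different cultures, and the p-values then cover the variation among these libraries alone, part of which may be technical. No batch or RNA integrity value is given, so handling and treatment cannot be told apart. Chemotherapy arms named in the design text were not analysed here.

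The oxidase moves electrons from NADPH across a membrane onto oxygen and so makes superoxide, which phagocytes use against ingested microbes. Its membrane part is flavocytochrome b558, a pair of the catalytic subunit NOX2 (encoded by Cybb) and its stabilising partner p22phox (Cyba). In resting cells the organiser p47phox (Ncf1) and its partners, p40phox (Ncf4) among them, stay in the cytosol, and the enzyme becomes active once they and a GTP-bound Rac protein join the membrane part. Rac2 is the Rac protein of blood cells, whereas Rac1 is made by most cell types and also controls the actin cytoskeleton.

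Library totals ran from 19025504 to 27070556 counts. Of 8 macrophage markers, all 8 stood at 1 CPM (counts per 1e6 counts of the library) or more in both PMJ2R groups. In ID8, 4 of these 8 (Adgre1, Itgam, Laptm5 and Lyz2) had no count and 3 reached 1 CPM (Csf1r at 7.54 to 12.5 CPM, Cd68 at 3.62 to 5.09 and Mpeg1 at 1.42 to 8.02), and the list summed to 15.3 to 20.1 CPM, against 2410 to 2490 in PMJ2R control and 2640 to 2700 in treated PMJ2R. Csf1r in PMJ2R stood at 314 to 344 CPM in control and 119 to 122 with rebastinib. The 6 ovarian and mesothelial markers summed to 3950 to 4200 CPM in ID8 control and 2600 to 2730 with rebastinib, and to at most 0.210 CPM in PMJ2R libraries. Of 7 neutrophil markers, S100a9 and Ly6g had no count in any library, and Cxcr2 alone reached 1 CPM, at 18.0 to 20.2 CPM in PMJ2R control and 0.473 to 0.642 CPM with rebastinib. Markers of B cells and T cells summed to under 1 CPM in every library, at most 0.420 and 0.526 CPM. Rebastinib libraries of PMJ2R gave 5.63% to 5.99% of their counts to 3 genes that overlap ribosomal RNA, against 0.0927% to 0.172% in control, and the ID8 values were 1.05% to 1.60% against 0.106% to 0.355%. The part of these genes in the results was not tested beyond the scaling alternatives given beside them. In libraries of bulk RNA, fewer cells of a type and less RNA per cell cannot be told apart.

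Of the 6 genes, 5 were transcribed in the macrophage line and had next to no counts in the tumour line. Cyba (ENSMUSG00000006519, chromosome 8, 122424776 to 122432930, GRCm38) had 3688, 4005 and 4063 counts in the PMJ2R control libraries and 0 in all 6 ID8 libraries. Ncf4 (ENSMUSG00000071715, chromosome 15, 78244801 to 78262580) had 1548, 1826 and 1719 counts in PMJ2R control and likewise 0 in all 6 ID8 libraries. Both groups of PMJ2R thus stood apart from ID8 with no overlap. Against a floor of 3 counts over the ID8 control group, Cyba was at least 3520-fold and Ncf4 at least 1530-fold higher in PMJ2R control cells. These floors and the intervals below cover counting error only.

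Cybb (ENSMUSG00000015340, chromosome X, 9435252 to 9487771) had 1909, 2171 and 2048 counts in PMJ2R control libraries and 1 count over the ID8 control libraries. Its PMJ2R to ID8 ratio was 5510, with a 95% counting interval of 989 to 218000. Ncf1 (ENSMUSG00000015950, chromosome 5, 134220053 to 134229625) had 3663, 4334 and 3881 counts in PMJ2R control and 3 over the ID8 control group, a ratio of 3560 (1220 to 17300). Rac2 (ENSMUSG00000033220, chromosome 15, 78559167 to 78572783) had 5625, 6360 and 6176 counts and 5 over the ID8 control group, a ratio of 3270 (1400 to 10100). With rebastinib the ID8 libraries held no count of Cyba, Cybb, Ncf1 or Ncf4, which left these genes at least 3740-fold, 1660-fold, 755-fold and 670-fold higher in treated PMJ2R, and 1 count of Rac2. No response of these 5 genes to rebastinib was therefore detectable in ID8 at this depth.

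Rac1 (ENSMUSG00000001847, chromosome 5, 143503634 to 143528036) was the exception, with 6716, 8472 and 7827 counts in PMJ2R control and 7906, 7908 and 8316 in ID8 control. In control cells it stood at 366 ± 0.473 CPM in ID8 and 296 ± 17.4 CPM in PMJ2R (SD, n = 3; CPM scaled by TMM, the trimmed mean of M values, over these 6 libraries). The log2 difference, PMJ2R minus ID8, was -0.31 (SE 0.0600, edgeR quasi-likelihood test, adjusted p = 1.02e-04), short of the 2-fold difference asked for in this comparison. Between the control lines 5 of the 6 oxidase genes were called higher in PMJ2R and none lower, where 18.1% of 15924 tested genes were called higher and 25.6% lower with an adjusted p below 0.05 and at least a 2-fold difference. The member without a call was Rac1. The 5 called genes passed the expression filter through their PMJ2R counts alone, and they were chosen as phagocyte genes. Their calls therefore restate the counts above, and the share over all genes is no test of them.

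Transcripts of the membrane pair and of the organiser moved in opposite directions in PMJ2R (below). Promoter regions are printed for these 3 genes, the only ones of the 6 in the RefSeq-based set used here. Each runs 5′ to 3′ from 250 bases before to 30 bases after the annotated start, on the minus strand of GRCm38.p6, at chr8:122432911-122433190 for Cyba, chrX:9469295-9469574 for Cybb and chr5:134229596-134229875 for Ncf1. Capitals mark matches, on either strand, to GAGGAA (a core bound by the myeloid factor PU.1, encoded by Spi1), CCAAT (the CCAAT box) and GGGCGG (the GC box).
Cyba: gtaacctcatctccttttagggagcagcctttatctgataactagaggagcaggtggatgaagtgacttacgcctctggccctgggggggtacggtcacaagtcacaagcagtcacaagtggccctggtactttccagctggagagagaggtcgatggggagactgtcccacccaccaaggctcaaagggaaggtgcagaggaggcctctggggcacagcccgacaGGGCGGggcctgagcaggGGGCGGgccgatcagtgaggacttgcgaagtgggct
Cybb: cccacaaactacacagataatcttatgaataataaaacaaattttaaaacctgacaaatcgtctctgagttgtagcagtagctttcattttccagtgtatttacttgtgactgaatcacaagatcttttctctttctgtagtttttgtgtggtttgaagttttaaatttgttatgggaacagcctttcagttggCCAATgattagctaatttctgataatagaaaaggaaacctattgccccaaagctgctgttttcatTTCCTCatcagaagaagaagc
Ncf1: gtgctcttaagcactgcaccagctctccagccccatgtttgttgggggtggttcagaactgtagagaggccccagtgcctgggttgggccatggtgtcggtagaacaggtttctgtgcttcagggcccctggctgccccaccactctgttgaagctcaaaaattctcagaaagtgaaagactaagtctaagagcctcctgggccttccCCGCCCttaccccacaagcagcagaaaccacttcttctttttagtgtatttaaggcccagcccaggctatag
Cybb held 1 match to GAGGAA on the opposite strand, at offset 9 after the annotated start, and 1 CCAAT box. Its window lies inside the GENCODE span of Cybb (9435252 to 9487771), away from the 5′ end of that span. The windows of Cyba and Ncf1 lie at the 5′ ends of theirs. Cyba held only GC boxes, and Ncf1 held 1 GC box on the opposite strand. Among 32851 promoter windows of the same length, 26% held GAGGAA, 36.1% CCAAT and 34.7% GGGCGG. These letter matches describe the windows and say nothing of binding.

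Compared per transcript length, the subunits differed widely in level in control PMJ2R cells. Levels were taken as RPKM (CPM per kilobase of all exon bases, TMM-scaled over the 12 libraries). Cyba was highest, at 122 to 137 RPKM (mean 129 ± 7.50, SD, n = 3). Rac2 followed at 64.8 to 69.7 RPKM and Rac1 at 54.3 to 61.0. The place of Rac1 is uncertain, since 51.4% of its exon bases are shared with Daglb and the strand setting is not given. Ncf1 stood at 36.4 to 37.4 RPKM, Ncf4 at 27.9 to 29.8 and Cybb, the catalytic subunit, lowest at 11.8 to 12.3. No neighbours in this order overlapped between libraries. Cyba thus exceeded Cybb, whose protein pairs with its own.

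With rebastinib the order of RPKM levels in PMJ2R changed. Cyba stayed highest at 194 to 205 RPKM, and Rac1 (117 to 121) now stood above Rac2 (84.9 to 88.5). Ncf4 came next at 18.0 to 19.2 RPKM and Cybb at 15.9 to 16.0. Ncf1 was lowest at 11.1 to 11.8 RPKM, below Cybb, where in control it had stood above both Ncf4 and Cybb. Neighbours in this order did not overlap either. The place of Rac1 against Rac2 is uncertain here too, through the exon bases shared with Daglb.

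**Figure D1:**
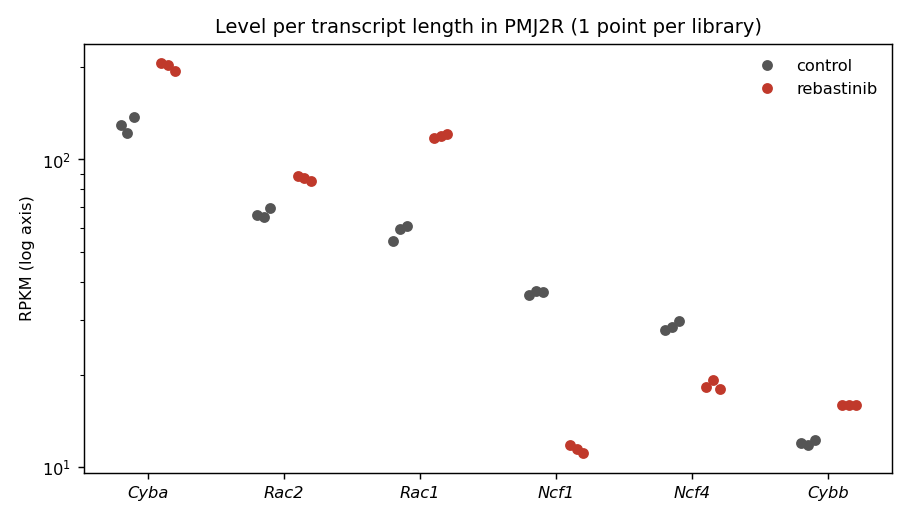
RPKM on a log axis for the 6 oxidase genes in PMJ2R, 1 point per library, grey for control and red for rebastinib (n = 3 each). Ncf1 moves from 36.4 to 37.4 RPKM in control to 11.1 to 11.8 with rebastinib, the lowest of the 6, while Cyba stays the highest. The level of Rac1 is uncertain, as 51.4% of its exon bases are shared with Daglb.

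Within PMJ2R, transcripts of the membrane pair and of the cytosolic subunits p47phox and p40phox moved in opposite directions with rebastinib, on the TMM scale. Cyba, Cybb, Rac1 and Rac2 rose and Ncf1 and Ncf4 fell (4 higher and 2 lower of 6 tested, edgeR quasi-likelihood test, adjusted p below 0.05). With library totals as the only scaling, 2 were called higher and 3 lower, and Cybb and Rac2 turned to small negative values. Most genes were called in this comparison (83.7% of 14010 tested, 40.3% higher and 43.3% lower), so 6 calls of 6 stand near that background. The median log2 fold change of the 6 genes was 0.46, against -0.04 over all genes tested.

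Of the membrane pair, Cyba rose in PMJ2R from 130, 122 and 134 CPM in control to 215, 211 and 201 CPM with rebastinib (edgeR log2 fold change 0.70, SE 0.0491, adjusted p = 1.98e-10). Cybb rose from 67.2, 65.9 and 67.6 CPM to 93.4, 93.2 and 92.5 CPM (edgeR 0.48, SE 0.0480, adjusted p = 3.73e-08; -0.09 with library totals only). For both genes each rebastinib library lay above each control library. Such separation held for 84.3% of all genes tested in PMJ2R. The Cybb gene shared no exon base with another annotated gene, and Cyba shared none either.

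The organiser Ncf1 had the largest change of the 6. It fell from 129, 132 and 128 CPM in control to 43.8, 42.2 and 40.6 CPM with rebastinib (edgeR log2 fold change -1.62, SE 0.0518, adjusted p = 4.29e-15), a 3.07-fold difference. Ncf4 fell from 54.5, 55.4 and 56.8 CPM to 37.2, 38.8 and 36.3 CPM (-0.57, SE 0.0576, adjusted p = 3.91e-08). In both genes the groups did not overlap, with the rebastinib libraries low. Ncf1 shares 408 of its 3663 exon bases with Gtf2ird2 on the opposite strand, and Gtf2ird2 fell alongside it, from 1114 to 1279 counts per control library to 192 to 229 with rebastinib (log2 fold change -1.59). In ID8 control libraries Gtf2ird2 had 226 to 289 counts while Ncf1 had 0 to 2. How far reads of Gtf2ird2 enter the Ncf1 counts in PMJ2R was not tested otherwise.

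The activating GTPases both rose in PMJ2R. Rac1 went from 236, 257 and 258 CPM to 532, 535 and 544 CPM (edgeR log2 fold change 1.10, SE 0.0462, adjusted p = 1.48e-13). Rac2 rose less, from 198, 193 and 204 CPM to 277, 271 and 263 CPM (0.45, SE 0.0441, adjusted p = 2.73e-08; -0.12 with library totals only). All rebastinib libraries of both genes lay above all control libraries. Rac1 shares 2309 of its 4496 exon bases (51.4%) with Daglb on the opposite strand, and the strand setting of the counting is not given in the sources used here, so its level is uncertain. Daglb itself did not pass the test in PMJ2R (0.10, adjusted p = 0.118).

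**Figure D2:**
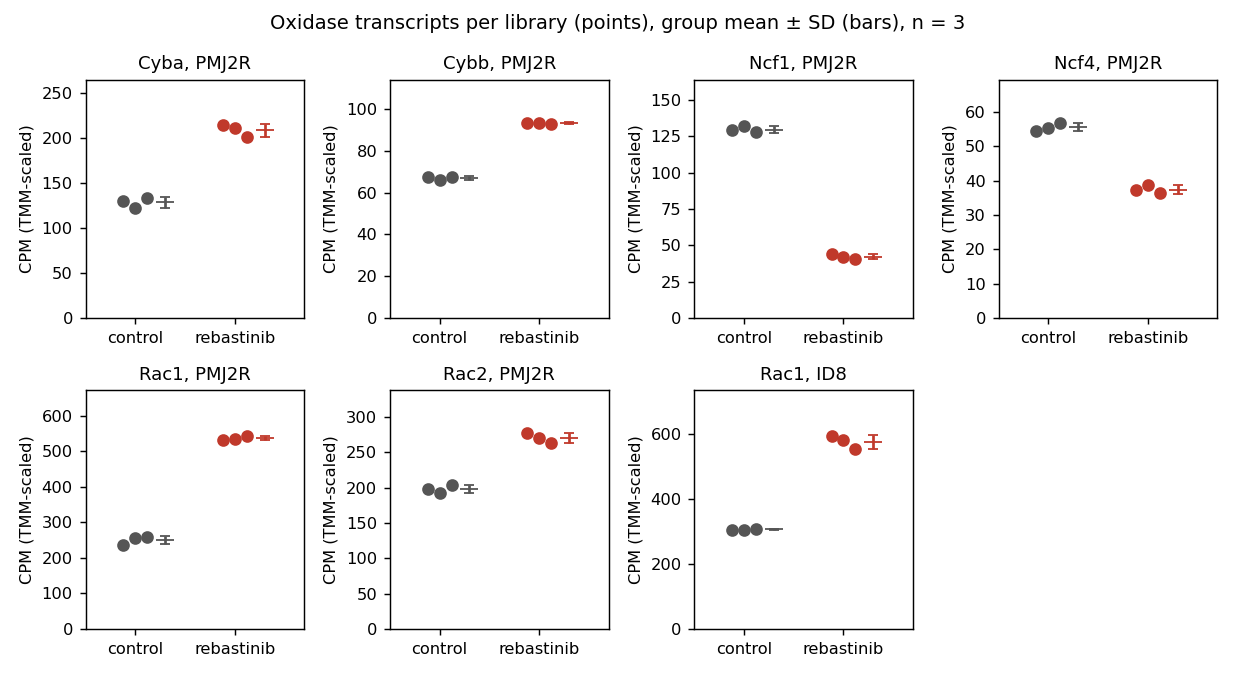
TMM-scaled CPM in each library (points) with the group mean ± SD (bars, n = 3) for the 6 oxidase genes in PMJ2R, and for Rac1 in ID8. In each panel the rebastinib and control libraries do not overlap: on this scale they lie above control for Cyba, Cybb, Rac1 and Rac2 and below for Ncf1 and Ncf4, and with library totals only Cybb and Rac2 turn to -0.09 and -0.12 on the log2 scale.

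The sign of the smaller increases depended on the scaling. With library totals only, the median of all genes in PMJ2R moved from -0.04 to -0.60, and in ID8 from -0.07 to -0.50. On that scale the log2 fold changes were 0.14 for Cyba, -0.09 for Cybb (adjusted p = 0.0979), 0.53 for Rac1, -0.12 for Rac2 (adjusted p = 0.0173), -2.18 for Ncf1 and -1.13 for Ncf4. The shortest 25% of genes by transcript length had a median of 0.36 in the TMM fit and the longest 25% -0.26. With trends of transcript length and GC content removed, all 6 kept direction and call, at 0.50 for Cyba, 0.47 for Cybb, 1.25 for Rac1, 0.75 for Rac2, -1.32 for Ncf1 and -0.58 for Ncf4.

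**Figure D3:**
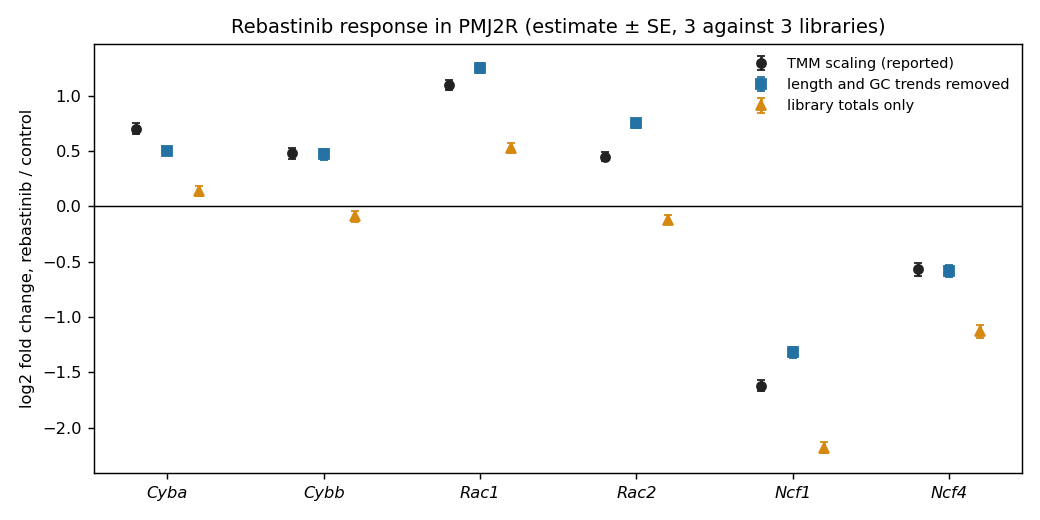
Log2 fold change (rebastinib over control, ± SE) in PMJ2R under TMM scaling, with length and GC trends removed, and with library totals only. Ncf1 and Ncf4 lie below 0 under all 3, Cyba and Rac1 above 0 under all 3, and Cybb and Rac2 above 0 except with library totals only (-0.09 and -0.12).

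Ratios of counts within a library need no scaling between libraries, but they are not corrected for trends of transcript length and GC content. With those trends removed, log2 fold changes in PMJ2R were 0.50 for Cyba, 0.47 for Cybb, -1.32 for Ncf1 and -0.58 for Ncf4. The log2 ratio of Ncf1 to Cyba was -0.01, 0.11 and -0.07 in PMJ2R control libraries and -2.30, -2.32 and -2.30 with rebastinib. A near parity of counts thus became a deficit of Ncf1 counts in all 3 treated libraries. Per exon length Ncf1 already stood below Cyba in control, at a mean of 37.0 against 129 RPKM. The ratio of Ncf4 to Cyba went from -1.25, -1.13 and -1.24 to -2.54, -2.44 and -2.47. Within the membrane pair, Cybb to Cyba moved far less, from a mean of -0.94 to -1.17. The ratio of Rac2 to Rac1 moved from -0.34 to -0.99. Ncf1 lost against Ncf4 as well, from 1.22 to 0.17. In each of the 7 ratios compared the groups did not overlap, with p = 0.1 by an exact two-sided permutation test (adjusted p = 0.1), and 0.1 is the smallest p that 3 against 3 libraries allow. Single genes separated in TMM-scaled CPM for 84.3% of those tested in PMJ2R, and ratios of other gene pairs were not taken. The 7 ratios were chosen with earlier results of these data known.

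**Figure D4:**
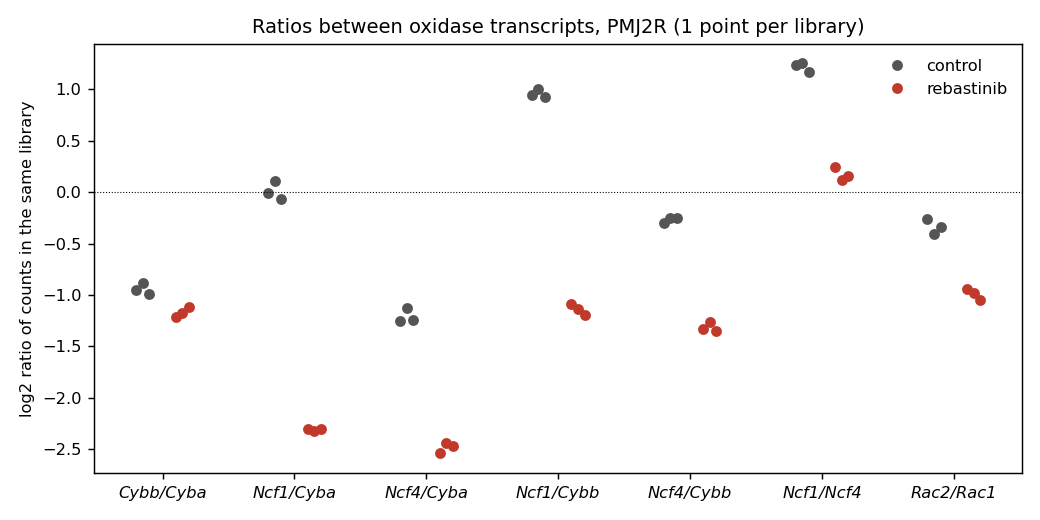
Log2 ratio of the counts of paired oxidase genes within each PMJ2R library for the 7 ratios compared (grey control, red rebastinib, n = 3 each). Ncf1 to Cyba falls from about parity of counts (mean 0.01) to -2.31, whereas Cybb to Cyba moves only from -0.94 to -1.17. The ratios are not corrected for gene length or for trends of length and GC content.

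In ID8 the Rac1 transcript rose with rebastinib too. It stood at 306, 305 and 308 CPM in control and 595, 581 and 553 CPM in treated libraries (edgeR log2 fold change 0.91, SE 0.0662, adjusted p = 1.31e-08), with no overlap, as for 82.2% of genes tested in ID8. Of 14829 genes tested there, 80.4% were called, 38.4% higher and 42.0% lower. Daglb, which shares exons with Rac1, rose in ID8 as well (1.31, SE 0.101). The response of Rac1 in PMJ2R minus that in ID8 was 0.12 on the log2 scale (95% interval -0.05 to 0.29, adjusted p = 0.221), in a test that called 52.4% of 16566 genes. It was called with DESeq2 (0.25, adjusted p = 0.00141), with RLE size factors (0.25, 0.0127) and when only genes averaging 5 CPM or more were kept (0.20, 0.0278). Over all alternatives its adjusted p ran from 0.00141 to 0.862, the latter with no expression filter.

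Of 10 other genes of the NADPH oxidase family, 3 were measured well enough to test in PMJ2R. Cybc1, which encodes a chaperone of the membrane pair, fell from 41.5, 38.9 and 32.7 CPM to 13.4, 14.1 and 13.1 CPM (edgeR log2 fold change -1.48, adjusted p = 3.85e-11). Nox1, a NOX2 homologue, fell (-0.95) and Noxo1, an organiser related to p47phox, rose (1.59), but Noxo1 shares 70.4% of its exon bases with Tbl3 on the opposite strand and Nox1 12.1% with Cstf2. That made 1 higher and 2 lower of 3 tested, where 40.3% of all genes were called higher and 43.3% lower. In ID8, Cybc1 fell (-0.49), while Nox1 (-0.23) and Noxo1 (0.29) did not pass the test. The remaining 7, among them Nox4 and both Duox genes, were too low to test in either line.

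Among 5 further small GTPases related to Rac, the ubiquitous Rhoa (1.14) and Cdc42 (1.18) rose in PMJ2R by about as much as Rac1, and Rhog (-0.87) and Rac3 (-1.30) fell (log2 fold changes, 2 higher and 2 lower of 4 tested). In ID8, Rhoa (0.97), Cdc42 (0.75) and Rhog (0.27) rose and Rhou (-1.78) fell, 3 higher and 1 lower of 5 tested. Of all genes, 40.3% were called higher and 43.3% lower in PMJ2R, and 38.4% and 42.0% in ID8. The Rhog value in ID8 was -0.16 with library totals only and -0.04 with length and GC trends removed.

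Genes for exchange factors, which load Rac with GTP, and for dissociation inhibitors, which hold it in the cytosol, split in PMJ2R. Of 8 tested, 4 were higher and 3 lower (0 and 5 with library totals only), with a median of 0.29. Shares over all genes were 40.3% higher and 43.3% lower in PMJ2R, and 38.4% and 42.0% in ID8. The exchange factor gene Tiam1 fell from 20.1, 21.1 and 20.0 CPM to 5.64, 5.05 and 4.69 CPM (-1.99), and Vav1 (-0.77) and Prex1 (-0.57) fell too. Prex1 stood at -0.07 with length and GC trends removed. Other exchange factor genes rose, Dock2 from a mean of 209 to 287 CPM and Vav3 from 28.1 to 43.1 CPM. With library totals only Dock2 was called lower and Vav3 stood at 0.05. The inhibitor gene Arhgdia rose (0.53; -0.03 with library totals only). In ID8, 3 of 5 tested were higher and 1 lower: Arhgdia (0.94), Arhgdib (0.44) and Vav2 (0.40) rose and Vav3 (-0.36) fell. With library totals only 1 was higher and 2 lower, with Arhgdib at 0.00 and Vav2 at -0.03. With length and GC trends removed 3 were higher and 0 lower, and Vav3 (-0.11) and Arhgdib (-0.03) lost their calls.

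Genes for kinases that act on the cytosolic subunits, and for the lipid kinase complex that makes the phosphoinositide bound by p40phox, with its partners Becn1 and Rubcn, also split. In PMJ2R 3 were higher and 4 lower of 9 tested, and the median was 0.01. Over all genes, 40.3% were called higher and 43.3% lower in PMJ2R, and 38.4% and 42.0% in ID8. Syk, the kinase downstream of phagocytic receptors, fell from 78.0, 82.1 and 86.0 CPM to 23.1, 24.5 and 26.8 CPM (-1.73). Prkcd, a protein kinase C gene, fell (-1.15), while Akt1 (0.90) and Becn1 (1.06) rose. Becn1 shares 43.9% of its exon bases with Cntd1 on the opposite strand. In ID8 the count was 3 higher and 4 lower of 9 tested, with Becn1 (1.01) and Akt1 (0.92) higher and Rubcn (-0.96) and Prkcd (-0.71) lower. Counts with library totals only were 2 higher and 7 lower in PMJ2R and 2 and 5 in ID8.

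Transcription factor genes known to act on the oxidase promoters gave 1 higher and 4 lower of 6 tested in PMJ2R (median -0.61), where 43.3% of all genes were lower. The count of lower genes was 3 with RLE size factors or with length and GC trends removed, both of which ended the call of Elf1 (-0.11). Irf8, a partner of PU.1 in myeloid cells, fell from 24.0, 25.6 and 27.0 CPM to 3.65, 3.91 and 2.98 CPM (edgeR log2 fold change -2.86, adjusted p = 5.90e-14). Rela (-1.29), an NF-kB subunit gene, and the interferon-response gene Irf1 (-1.11) fell. Spi1, which encodes PU.1, rose from 152, 158 and 184 CPM to 204, 208 and 201 CPM (0.31, adjusted p = 1.20e-04), but stood at -0.25 with library totals only, where 6 of 6 were lower. In ID8, Spi1 had no count and Irf8 1 count over the control libraries. There, Rela fell (-1.31), Irf1 rose (0.66), and Nfkb1 (0.12) and Elf1 (0.07) did not pass the test, 1 higher and 1 lower of 4 tested. With library totals only the count was 1 and 3, and with length and GC trends removed 3 and 1, with Nfkb1 (0.27) and Elf1 (0.23) higher. The TMM fit of ID8 called 38.4% of all genes higher and 42.0% lower.

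Genes that handle superoxide and peroxide, the oxidase's products, were tested in both lines. In PMJ2R 6 of 7 tested were higher and 1 lower (median 0.77), or 5 and 1 with library totals only. Of all genes, 40.3% were called higher in PMJ2R and 38.4% in ID8 in the TMM fits. Prdx6 (1.30), a peroxiredoxin gene, Gpx1 (0.91), a glutathione peroxidase gene, and Sod2 (0.77), the mitochondrial superoxide dismutase gene, were among the 6 that rose in PMJ2R. The gene that fell was Hvcn1, which encodes the proton channel that balances the charge moved by the oxidase. It went from 28.6, 26.6 and 26.7 CPM to 5.25, 4.51 and 4.82 CPM (-2.49, SE 0.0971, edgeR adjusted p = 5.45e-14), and it shares 44.2% of its exon bases with Tctn1 on the opposite strand. In ID8 7 of 8 were higher and 1 lower (median 1.30), or 6 and 1 with library totals only, with Sod3 (1.94), Gpx1 (1.73), Prdx1 (1.43) and Prdx6 (1.31) higher. Hvcn1 fell in ID8 from 3.90 ± 0.203 to 1.46 ± 0.446 CPM (SD, n = 3; -1.40).

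**Figure D5:**
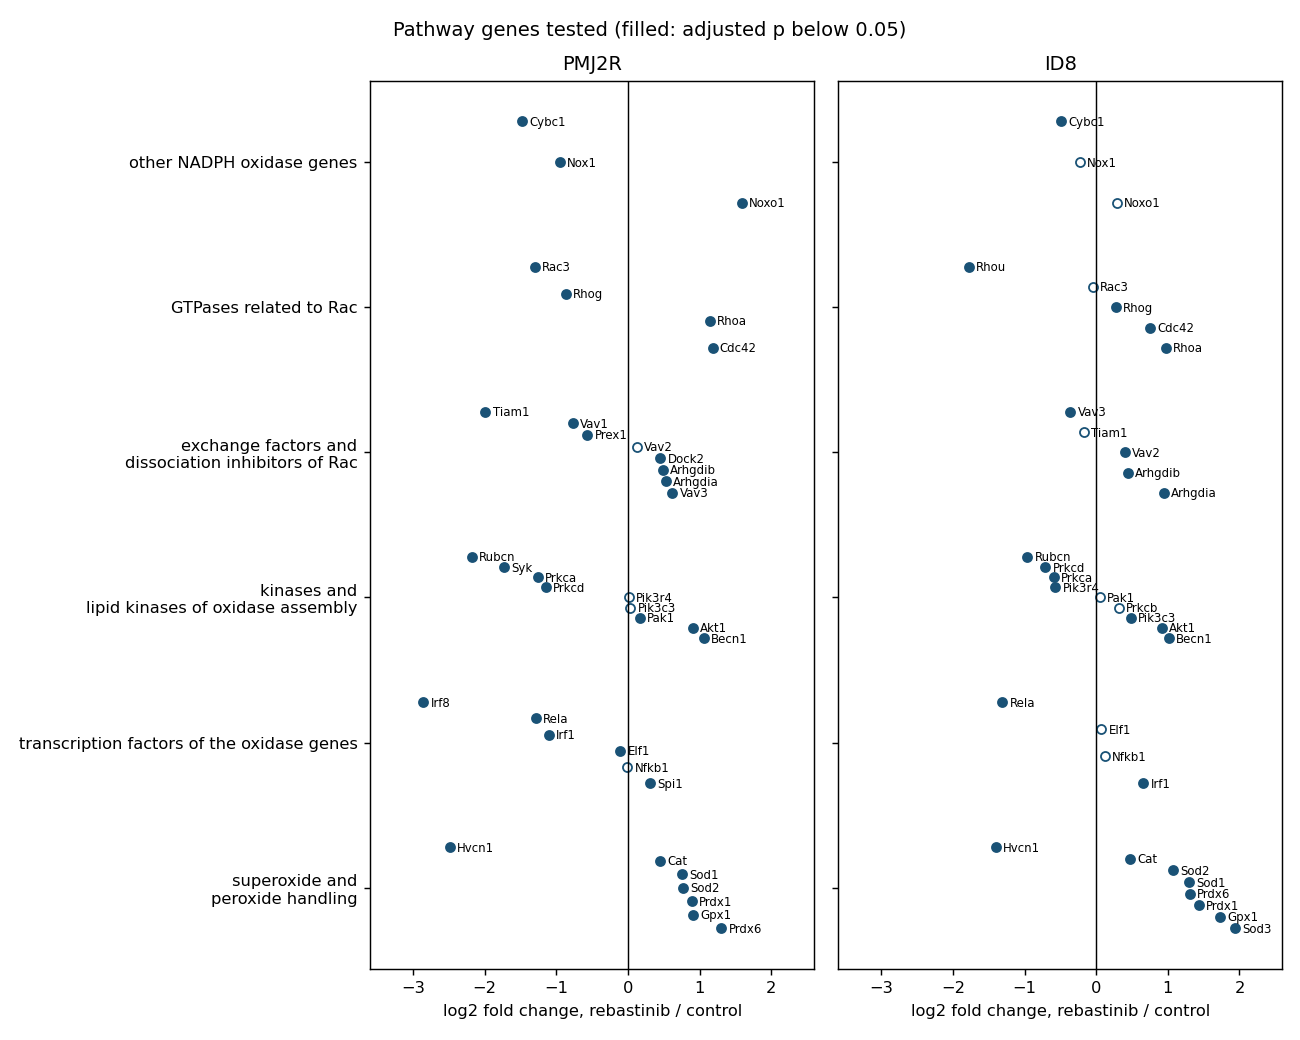
Log2 fold changes (rebastinib over control, TMM scaling) of the tested pathway genes by list in PMJ2R and ID8, filled where the adjusted p was below 0.05. In PMJ2R the 1 member below 0 among superoxide and peroxide genes is Hvcn1 (-2.49), and Irf8 (-2.86) is the lowest of the transcription factor genes. With library totals only, 9 of the 37 genes in PMJ2R (Arhgdia, Arhgdib, Cat, Dock2, Pak1, Pik3c3, Pik3r4, Spi1 and Vav2) and 8 of the 34 in ID8 (Arhgdib, Elf1, Nfkb1, Noxo1, Pak1, Prkcb, Rhog and Vav2) go from above 0 to 0 or below.

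Over the 12 libraries, the transcripts whose log2 CPM followed Cybb most closely, out of 9185 genes averaging 10 CPM or more, were Mgl2, Pld4, Ctss, Parvg and Cd52 (Pearson r from 0.9996 to 0.9997). All 12 points share the contrast between the lines, and each of these genes had 0 to 11 counts over the 6 ID8 libraries, so the coefficients are a description. Among the other oxidase genes, Cyba ranked 6th in likeness (r = 0.9996) and Rac2 11th (0.9994), while Ncf4 (0.9965), Ncf1 (0.9870) and Rac1 (-0.1236) were farther.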

How the data were processed

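The authors deposited whole-number gene counts for 12 libraries in 1 table of 55421 Ensembl rows. GRCm38, featureCounts, STAR 2.6.1c, FastQC and DESeq2 appear in the submitters' processing notes, without their roles. Not given in the sources used here were the annotation, whether strand was used, and how reads with several matches were counted. Symbols, positions and lengths came from GENCODE vM21 (181 identifiers with 0.00261% of counts found none). Groups came from the sample titles, and every sample column was used.

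Each comparison was fitted over all genes with edgeR 4.0.16 in R 4.3.3 (TMM, default expression filter, robust quasi-likelihood test), and p-values were adjusted by Benjamini-Hochberg, with 0.05 as threshold. The rebastinib fits used the 6 libraries of a line, the control-line fit both control groups, and the response difference all 12 libraries. A standard error is the log2 fold change divided by the root of F. CPM beside a fold change carry the TMM factors of that fit. Length and GC trends were smooth terms fitted per library with mgcv 1.9.3, centred, and used as offsets. The scripts were tested on simulated counts in which few genes changed. That test cannot judge the scaling of these data, where most genes were called. DESeq2 1.42.0 and the other alternatives are in the closing section. All 6 members are named, and up to 4 genes per pathway list by smallest p in each rebastinib comparison. Dock2 and Vav3 in PMJ2R were added since they went against the other exchange factor genes named. Members, lists and the 7 ratios were chosen with earlier results of these data known, and some genes of the pathway lists are not reported here. Between libraries of a group the chi-square per degree of freedom of the counts ran from 1.67 to 21.4, and no library was a copy of another. It was 1.67 to 2.20 in treated PMJ2R, 3.72 to 11.4 in PMJ2R control, 9.44 to 21.4 in treated ID8 and 4.25 to 7.55 in ID8 control. All were counted as separate samples, but these values cannot tell whether they came from separate cultures. Precision is limited by 3 libraries per group.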

Additional observations from a re-analysis of the deposited data

Results flagged for a closer look

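The response to rebastinib was compared between the lines by a test of the difference itself (edgeR, PMJ2R minus ID8, log2). It differed for 18 of 32 named pathway genes (56.2%), and 52.4% of all genes were called in this test. These shares are not like for like, since the named genes were taken by smallest p in the rebastinib comparisons of the same data. Vav1 and Spi1 had no count in ID8 and Sod3 none in PMJ2R, so their difference could not be estimated. The difference did not pass the test for the 6 oxidase genes, of which Rac1 alone had enough counts in ID8. Genes with opposite calls in the lines were Irf1 (-1.83, up in ID8 and down in PMJ2R), Rhog (-1.20, the same way) and Vav3 (0.91, down in ID8 and up in PMJ2R). The ID8 value of Rhog alone was 0.27, and -0.16 with library totals only. Vav3 was not called in ID8 with length and GC trends removed (-0.11) or in PMJ2R with library totals only (0.05). The difference was negative for Tiam1 (-1.88), Rac3 (-1.32), Rubcn (-1.28), Hvcn1 (-1.15), Cybc1 (-1.05), Gpx1 (-0.89), Nox1 (-0.79), Prdx1 (-0.60), Prkcd (-0.51), Arhgdia (-0.47), Sod2 (-0.37) and Vav2 (-0.35, not called with RLE size factors). It was positive for Rhou (2.29), Noxo1 (1.23) and Cdc42 (0.36). The value of Rhou rests on 3 to 11 counts per PMJ2R library.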

How the results depend on the processing

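In PMJ2R the 6 oxidase genes kept direction and call in 6 of 7 alternative fits and in the 6 fits that left out 1 library (4 higher and 2 lower in each). In the seventh, library totals only, Cybb (-0.09) and Rac2 (-0.12) turned and 2 members were called higher. Library totals only also changed the genes called higher from 5652 to 3103 in PMJ2R (lower, 6071 to 8676) and from 5687 to 3540 in ID8 (lower, 6230 to 8471). Between control lines a mean of at least 5 CPM, which tests fewer genes, left 1578 higher and 2395 lower, and the 5 members called higher stayed 5. For the response difference, 1 member (Rac1) was called higher with DESeq2, with RLE size factors and at 5 CPM; the cause was not tested. TMM left 3618 genes higher and 5066 lower in that test, RLE size factors 4260 and 4198, and DESeq2 4401 and 4241. Same-numbered libraries did not deviate together (r from -0.167 to 0.0662 within lines), so no effect shared by number was seen. With 3 libraries per group this cannot exclude that the numbers pair the samples. The replicate block left the PMJ2R counts at 5656 higher and 6064 lower. Leaving out 1 library at a time gave 5529 to 5753 genes higher and 5991 to 6219 lower in PMJ2R, and 5462 to 5832 and 6004 to 6401 in ID8. Removing length and GC trends moved Rac2 from 0.45 to 0.75. Using the longest transcript for length, chosen after seeing the data, gave Cyba 181, Rac2 68.3, Rac1 63.0, Ncf1 47.0, Ncf4 39.7 and Cybb 14.7 RPKM in PMJ2R control, in the same order. Depth limits the ID8 side: a count of 0 over its control group allows up to 0.0443 CPM.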
